A study of Mus musculus with 12 samples.

Results

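The 34 genes described here encode enzymes that make, salvage or control purine, pyrimidine and deoxynucleotide building blocks. They were taken by name from the 14323 gene symbols of the count table, and every one of the 34 was found. Their RNA was measured in naïve CD8+ T cells sorted as TCRβ+CD8+CD62L+CD44- from spleens of 3 wild type mice. Cells of each mouse were cultured for 6 h on plates coated under 4 conditions, which gave 12 libraries with 3 per condition. Unstimulated isotype wells held isotype antibodies only. Unstimulated anti-LAIR-1 wells held 2.5 µg/ml of 2C7, an agonistic antibody to the inhibitory collagen receptor LAIR-1, in place of its isotype. Anti-CD3 isotype wells held 2.5 µg/ml of 145-2C11, which engages CD3ε of the T cell receptor complex, and anti-CD3 anti-LAIR-1 wells held both antibodies at these doses. All antibodies were bound to the plate, and no other cell type was added. The study asked how LAIR-1 ligation alters the response of these cells to CD3.

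Purine synthesis builds the ring on PRPP, an activated ribose phosphate, up to IMP, from which AMP and GMP branch off. Pyrimidine synthesis makes orotate first, joins it to PRPP to give UMP, and ends with CTP. Salvage enzymes return free bases and nucleosides to the nucleotide pool, ribonucleotide reductase turns ribonucleotides into deoxynucleotides, and SAMHD1 degrades deoxynucleotide triphosphates. Resting T cells keep these pathways low, and lymphocytes that prepare to divide depend on them, which is why IMPDH and DHODH are targets of immunosuppressive drugs.

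The libraries held between 1781218 and 7725545 counts, and 3 counts corresponded to 0.405 to 1.62 CPM, the count scaled to a common library size, depending on the library. Every CPM value below was scaled by TMM over the 12 libraries. The summed CPM of the 5 T cell markers found (Cd3e, Cd3d, Cd3g, Cd8a and Cd8b1) was 2497 to 2932 in unstimulated libraries, 1342 to 1426 with anti-CD3 and isotype, and 1698 to 1899 with anti-CD3 and anti-LAIR-1. Cd4 stayed at or below 1.63 CPM, the 5 naive markers summed to 3588 to 3947 CPM in unstimulated libraries, and of the B cell markers Ms4a1 had a group mean under 1 CPM throughout. Group means of Cd79a, H2-Aa and H2-Ab1 were at most 2.65 CPM and those of Cd74 at most 5.63 CPM. Cd79b went from 4.85 CPM in unstimulated isotype libraries to 1.09 CPM with anti-CD3 (log2 -2.29 ± 0.50, SE, adjusted p = 0.000288, edgeR), and Cd74 from 2.93 to 5.63 CPM (0.88 ± 0.39, SE, adjusted p = 0.0486, edgeR). Early activation genes (Cd69, Il2ra, Nr4a1, Egr1, Egr2, Myc) summed to 214 to 244 CPM without anti-CD3 and 2004 to 2504 CPM with it. Mitochondrially encoded genes took 17.7% to 20.9% of counts in unstimulated libraries and 11.5% to 13.2% in anti-CD3 libraries, and the part of this shift and of the marker shifts in the results below was not tested. In bulk RNA, fewer cells of a type and less RNA per cell cannot be told apart.

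With anti-CD3 and isotype, 25 of the 32 members that passed the low-count filter rose, 4 fell and 3 did not pass the test. Each de novo purine and pyrimidine step among the members had at least 1 gene that rose, while the deoxynucleoside kinases Dck and Tk2, the second CTP synthase Ctps2 and the dNTP hydrolase Samhd1 fell. The 34 genes together took 0.280% ± 0.00511 of all counts in unstimulated isotype libraries and 0.629% ± 0.0129 in anti-CD3 isotype libraries (SD, n = 3). Of all 8690 genes tested in this comparison 71.3% were called, 35.3% higher and 36.1% lower (edgeR quasi-likelihood test, Benjamini-Hochberg adjusted p under 0.05). The members' median log2 fold change was 1.46, beside a median of -0.03 over all genes tested. None of the 25 that rose or the 4 that fell had overlapping groups, which held for 73.5% of all genes tested (37.7% higher, 35.8% lower). The 2 members left out by the filter, Tk1 and Tyms, are given by their counts below.

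**Figure D1:**
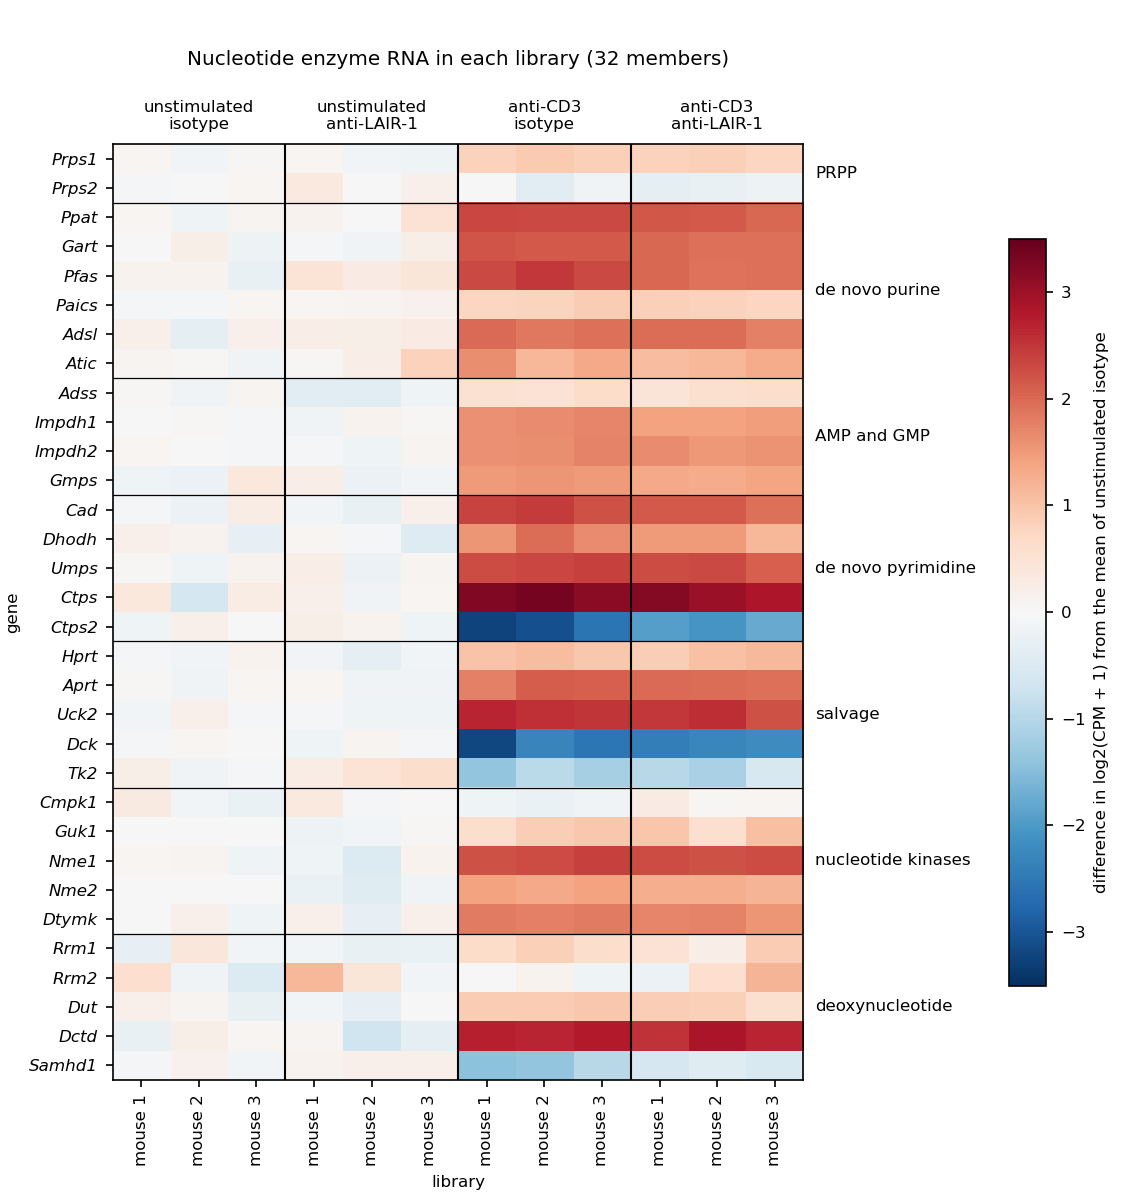
Difference in log2(CPM + 1) of each library from the mean of the 3 unstimulated isotype libraries, for the 32 members with more than a few counts, in the order of the biosynthetic steps (rows) and by condition and mouse (columns). The 6 anti-CD3 libraries are red for the purine and pyrimidine ring enzymes and blue for Ctps2, Dck, Tk2 and Samhd1.

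Of the 2 PRPP synthetase genes, Prps1 rose and Prps2 did not pass the test. Prps1, a PRPP synthetase encoded on the X chromosome, measured 73.8, 65.7 and 72.8 CPM in mice 1 to 3 with isotype alone and 125, 133 and 126 CPM with anti-CD3 and isotype. All anti-CD3 values lay above all unstimulated values, and the log2 fold change was 0.82 ± 0.11 (SE, adjusted p = 7.26e-07). Its paralog Prps2 measured 65.2, 67.8 and 72.3 CPM unstimulated and 67.1, 52.1 and 62.7 CPM with anti-CD3. These groups overlapped, with a log2 fold change of -0.21 ± 0.13 (SE, adjusted p = 0.154). Prps1 took 50.8% ± 2.01 of the counts of the pair in unstimulated isotype libraries and 67.9% ± 3.58 in anti-CD3 isotype libraries (SD, n = 3). Such shares are of 3'-end counts that were not divided by transcript length, so they compare conditions and not the amounts of the 2 transcripts.

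All 6 members of the purine ring pathway to IMP rose, with log2 fold changes between 0.76 and 2.38. Pfas, whose enzyme carries out the fourth step, rose most in this group. It measured 13.9, 13.9 and 10.3 CPM unstimulated and 66.2, 74.4 and 66.1 CPM with anti-CD3. The 2 sets of values were far apart, and the log2 fold change was 2.38 ± 0.17 (SE, adjusted p = 1.11e-11). Paics, which encodes a bifunctional carboxylase and synthetase of the same chain, measured 407, 409.9 and 440 CPM unstimulated and 701, 713 and 770.4 CPM with anti-CD3. It rose least, by 0.76 ± 0.09 on the log2 scale (SE, adjusted p = 2.82e-08), again without overlap. Between them lay Ppat, the committing amidotransferase, at 2.36, Gart, a trifunctional enzyme, at 2.14, Adsl, a lyase used here and in AMP synthesis, at 1.93, and Atic, which closes the ring, at 1.39. Ppat and Paics lie head to head on chromosome 5 of mm10, on opposite strands, and their annotated genes share 272 bases.

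The 4 genes of the AMP and GMP branches also rose. Impdh1, an isoenzyme of the rate-limiting step to GMP, measured 78.1, 79.6 and 76.0 CPM unstimulated and 237, 246 and 259 CPM with anti-CD3. Its paralog Impdh2 measured 80.1, 76.3 and 73.9 CPM unstimulated and 236, 240.1 and 256 CPM with anti-CD3. Both rose without overlap, with log2 fold changes of 1.63 ± 0.10 and 1.63 ± 0.10 (SE). Impdh1 took 49.4% to 51.1% of the pair's counts in unstimulated isotype libraries and 50.1% to 50.6% in anti-CD3 isotype libraries. The Impdh2 count is uncertain because 87.0% of the 60-base words in its last 500 transcript bases also occur in the pseudogene Impdh2-ps. Adss, which starts the AMP branch, measured 127, 114 and 132 CPM unstimulated and 181, 177 and 194 CPM with anti-CD3. It had the smallest rise of the 25, at 0.54 ± 0.10 (log2, SE, adjusted p = 6.93e-05), and its groups did not overlap. Gmps, the GMP synthetase, rose by 1.54 on the log2 scale.

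In the pyrimidine pathway, 4 of 5 members rose and 1 fell, and the 2 CTP synthase genes moved in opposite directions. Ctps, whose enzyme amidates UTP to CTP, measured 17.9, 8.57 and 16.7 CPM unstimulated and 139, 150.1 and 132 CPM with anti-CD3. Every anti-CD3 library was far above every unstimulated one, and the log2 fold change of 3.24 ± 0.17 (SE, adjusted p = 5.97e-14), 9.46-fold, was the highest among the members. Ctps2, its X-linked paralog, measured 53.6, 67.0 and 58.2 CPM unstimulated and 5.44, 6.15 and 9.33 CPM with anti-CD3. It fell without overlap, and its log2 fold change of -3.07 ± 0.20 (SE, adjusted p = 2.91e-12) was the lowest among the members. Ctps took 11.4% to 25.0% of the pair's counts in the unstimulated isotype libraries and 93.4% to 96.2% in the anti-CD3 isotype libraries. The earlier steps rose too. Cad, the trifunctional enzyme that starts the pathway, rose by 2.35, Dhodh, the mitochondrial dehydrogenase, by 1.73, and Umps, which makes UMP, by 2.33 (log2).

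**Figure D2:**
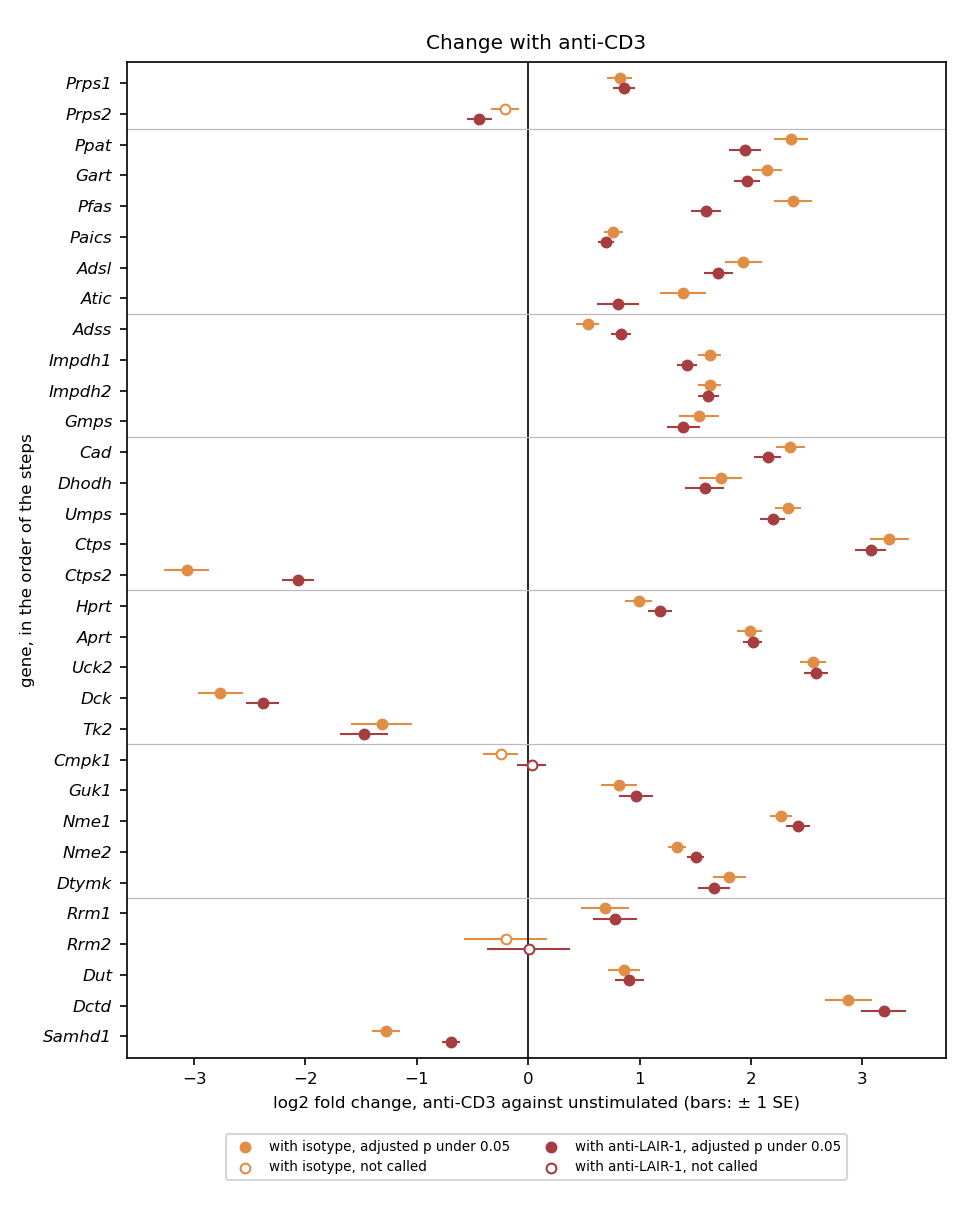
Log2 fold change of each tested member with anti-CD3 (x axis, bars ± 1 SE, 3 libraries per group), against unstimulated isotype (orange) and against unstimulated anti-LAIR-1 (red), with filled points for adjusted p under 0.05. Points run from -3.07 for Ctps2 to 3.24 for Ctps with isotype, and from -2.38 for Dck to 3.19 for Dctd with anti-LAIR-1.

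Among the members, salvage was split between nucleobase and uridine enzymes, which rose, and the 2 deoxynucleoside kinases that could be tested, which fell. Nucleoside kinases outside the members, given below, did not keep to this split. Uck2, a uridine and cytidine kinase, measured 42.4, 51.4 and 43.1 CPM unstimulated and 296, 270.4 and 263 CPM with anti-CD3. The groups were well separated, with a log2 fold change of 2.56 ± 0.12 (SE, adjusted p = 3.61e-15). Dck, which phosphorylates deoxycytidine and also purine deoxynucleosides, measured 52.3, 57.6 and 53.4 CPM unstimulated and 5.14, 10.2 and 8.52 CPM with anti-CD3. Each mouse had less of it after stimulation, and its log2 fold change was -2.76 ± 0.20 (SE, adjusted p = 1.98e-11). Tk2, the mitochondrial thymidine kinase, measured 16.6, 13.1 and 13.5 CPM unstimulated and 4.84, 6.99 and 5.79 CPM with anti-CD3. It fell without overlap, with a log2 fold change of -1.32 ± 0.27 (SE, adjusted p = 0.000156). Tk1, the cytosolic thymidine kinase of cycling cells, had between 0 and 5 counts in each of the 12 libraries, so no change was detectable at this depth. Hprt and Aprt, which salvage hypoxanthine with guanine and adenine respectively, rose by 0.99 and 1.99 (log2).

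Of the 5 nucleotide kinases, 4 rose. Nme1, a nucleoside diphosphate kinase, measured 144, 147 and 126 CPM unstimulated and 651, 675 and 736 CPM with anti-CD3. Nme2, a second such kinase next to it on chromosome 11, measured 817, 813 and 821 CPM unstimulated and 2155, 2037 and 2157 CPM with anti-CD3. Neither gene's groups overlapped, and the log2 fold changes were 2.27 ± 0.10 and 1.34 ± 0.08 (SE). Nme1 took 13.3% to 15.3% of the pair's counts in unstimulated isotype libraries and 23.2% to 25.4% in anti-CD3 isotype libraries. Both counts are uncertain, since 32.8% of the 60-base words at the 3' end of Nme1 and 98.9% of those of Nme2 also occur in other transcripts, among them the readthrough transcript Gm20390. Without Nme1, Nme2 and Impdh2 the members took 0.169% to 0.183% of counts in unstimulated libraries and 0.318% to 0.344% in anti-CD3 libraries. Cmpk1, the UMP and CMP kinase, measured 54.9, 40.8 and 37.2 CPM unstimulated and 39.0, 37.3 and 40.1 CPM with anti-CD3. These groups overlapped, with a log2 fold change of -0.25 ± 0.16 (SE, adjusted p = 0.159). Guk1, the GMP kinase, and Dtymk, the dTMP kinase, rose by 0.81 and 1.81 (log2).

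The deoxynucleotide genes did not move as a group. Dctd, which deaminates dCMP to dUMP for thymidylate synthesis, measured 4.96, 7.35 and 6.47 CPM unstimulated and 46.6, 44.3 and 48.6 CPM with anti-CD3. It rose by 2.87 ± 0.21 on the log2 scale (SE, adjusted p = 2.33e-11), or 7.33-fold, with no overlap. Samhd1, whose enzyme hydrolyses deoxynucleotide triphosphates, measured 205, 233 and 196 CPM unstimulated and 77.7, 80.5 and 108 CPM with anti-CD3. All 3 anti-CD3 values lay below all unstimulated values, a log2 fold change of -1.28 ± 0.12 (SE, adjusted p = 2.34e-09). Dut, the dUTPase, and Rrm1, the large subunit of ribonucleotide reductase, rose by 0.86 and 0.69 (log2). The Rrm1 call was lost without unstimulated isotype mouse 1 (log2 0.51, adjusted p = 0.0595, edgeR) and with the mouse as a block in DESeq2 (log2 0.76, adjusted p = 0.0522). Rrm2, the small subunit that accumulates in S phase, had 6 to 59 counts per library and a log2 fold change of -0.20 ± 0.37 (SE, adjusted p = 0.641). Tyms, the thymidylate synthase, had 3 to 14 counts per library and was not tested here. The 8 cycling markers summed to 320 to 373 CPM in unstimulated isotype libraries and 756 to 824 CPM with anti-CD3 and isotype. The replication genes among them rose, Pcna from 275.5 to 671 CPM (log2 1.25 ± 0.09, SE, adjusted p = 3.19e-11, edgeR), with Mcm2 at 0.86 and Mcm5 at 0.68 (log2). Mki67 and Top2a went the other way, from 2.72 to 0.658 CPM and from 3.56 to 2.23 CPM, and Cdk1 went from 1.08 to 1.95 CPM. Ccnb1 and Ccna2 were under 1 CPM, and these 5 were not tested in this comparison. Under anti-LAIR-1, Top2a was tested and fell with anti-CD3 from 5.57 to 2.85 CPM (log2 -0.91 ± 0.37, SE, adjusted p = 0.0359, edgeR). There Pcna, Mcm2 and Mcm5 rose by 1.32, 1.00 and 0.69 (log2).

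Since most members rose together, their promoters were searched for CACGTG, the E-box to which MYC and other bHLH factors bind and which reads the same on both strands. RefSeq promoters, 250 bases before to 50 after each start on GRCm38.p6, which is mm10, were matched for 32 of the 34 members, not Pfas and Dhodh. The letters CACGTG stood in promoters of 6 members, or 18.8% of the 32, beside 12.9% of the 7132 tested genes that had a promoter entry and 8.09% of all 27025 genes. The 6 were Paics, Atic, Impdh2, Nme1, Dtymk and Tyms, of which all but the untested Tyms rose. Most members that rose, Ctps and Cad among them, had no CACGTG in this window. CCAAT, searched on both strands, stood in promoters of 37.5% of the members and 43.1% of the tested genes. TTTCCCGC, an E2F-type sequence also searched on both strands, was found for Prps2 and Ppat, or 6.25% of the members beside 2.64% of the tested genes, and TTTGGCGC for no member. These matches are descriptions of sequence and not binding sites. For each of the 5 tested members 1 promoter is printed 5′ to 3′ on the gene's strand, with the E-box in capitals, to show where it lies. Nme1 has a second RefSeq promoter with CACGTG at -29, which is not printed. It begins at -203 from the RefSeq start in Paics, -7 in Atic, -110 in Impdh2, -18 in the printed promoter of Nme1 and -148 in Dtymk.
Paics, chr5:76951052-76951351, + strand: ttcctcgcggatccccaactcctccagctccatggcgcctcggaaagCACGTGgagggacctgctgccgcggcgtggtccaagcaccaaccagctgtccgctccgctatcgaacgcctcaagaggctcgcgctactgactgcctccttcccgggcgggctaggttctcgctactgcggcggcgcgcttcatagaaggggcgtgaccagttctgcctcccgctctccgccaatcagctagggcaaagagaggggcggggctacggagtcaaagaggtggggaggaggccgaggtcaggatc
Atic, chr1:71556906-71557205, + strand: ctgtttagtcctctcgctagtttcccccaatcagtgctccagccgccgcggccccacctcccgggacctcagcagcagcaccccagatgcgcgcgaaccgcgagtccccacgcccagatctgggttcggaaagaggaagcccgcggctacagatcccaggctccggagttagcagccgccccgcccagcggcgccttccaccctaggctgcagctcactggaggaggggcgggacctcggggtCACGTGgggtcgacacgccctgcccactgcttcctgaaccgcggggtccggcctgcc
Impdh2, chr9:108560186-108560485, + strand: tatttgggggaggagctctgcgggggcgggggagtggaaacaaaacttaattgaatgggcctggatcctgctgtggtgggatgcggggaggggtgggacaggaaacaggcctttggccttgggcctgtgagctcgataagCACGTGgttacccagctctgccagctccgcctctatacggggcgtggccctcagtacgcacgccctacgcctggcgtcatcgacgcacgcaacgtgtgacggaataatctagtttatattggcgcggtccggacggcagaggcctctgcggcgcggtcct
Nme1, chr11:93968223-93968522, - strand: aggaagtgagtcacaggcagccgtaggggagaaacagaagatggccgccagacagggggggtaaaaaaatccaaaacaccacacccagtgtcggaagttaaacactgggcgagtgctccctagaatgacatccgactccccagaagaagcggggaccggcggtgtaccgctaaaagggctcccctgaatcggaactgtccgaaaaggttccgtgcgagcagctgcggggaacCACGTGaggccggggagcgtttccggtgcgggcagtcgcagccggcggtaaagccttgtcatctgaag
Dtymk, chr1:93801885-93802184, - strand: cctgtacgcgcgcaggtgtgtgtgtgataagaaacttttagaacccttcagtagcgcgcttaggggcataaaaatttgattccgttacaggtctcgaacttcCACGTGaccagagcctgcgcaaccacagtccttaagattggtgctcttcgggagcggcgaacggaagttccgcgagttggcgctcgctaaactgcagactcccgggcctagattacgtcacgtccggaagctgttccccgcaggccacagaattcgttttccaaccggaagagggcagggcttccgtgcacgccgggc

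Anti-CD3 in the presence of anti-LAIR-1 was set against its own unstimulated anti-LAIR-1 libraries. Here 25 of 32 tested members rose, 5 fell and 2, Cmpk1 and Rrm2, did not pass the test. Of all 9000 genes tested 72.7% were called, 36.4% higher and 36.3% lower (edgeR, adjusted p under 0.05). The groups of all 30 changed members were separate, as were those of 74.8% of all genes tested (37.6% higher, 37.2% lower). The members' median log2 fold change was 1.41, beside -0.04 over all genes tested. This comparison shares no library with the isotype one, although the same 3 mice supplied the cells. Ctps measured 15.5, 12.5 and 14.5 CPM unstimulated and 135, 119 and 104 CPM with anti-CD3, with no overlap and a log2 fold change of 3.07 ± 0.14 (SE). Dctd measured 6.65, 3.45 and 4.82 CPM unstimulated and 40.9, 51.5 and 44.7 CPM with anti-CD3, again separate, with a log2 fold change of 3.19 ± 0.20 (SE). Uck2 measured 43.8, 40.9 and 40.7 CPM unstimulated and 259.6, 276 and 217 CPM with anti-CD3. The rise of this uridine kinase was 2.58 ± 0.11 (log2, SE), with all anti-CD3 values on top. Dck measured 49.3, 58.1 and 51.7 CPM unstimulated and 9.44, 10.3 and 11.0 CPM with anti-CD3, and fell by 2.38 ± 0.15 on the log2 scale (SE), the lowest value among the members here.

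Tk2 measured 17.2, 20.4 and 22.2 CPM in unstimulated anti-LAIR-1 libraries and 6.74, 5.91 and 9.32 CPM with both antibodies, and fell by 1.47 ± 0.22 (log2, SE). Prps2 measured 86.5, 67.1 and 78.2 CPM unstimulated and 54.6, 57.1 and 60.4 CPM with anti-CD3. All of its anti-CD3 values were below all unstimulated ones, and this PRPP synthetase fell by 0.44 ± 0.11 (log2, SE, adjusted p = 0.00167, edgeR). Its change with isotype did not pass the test, yet the 2 changes were not shown to differ (interaction -0.26 ± 0.17, SE, adjusted p = 0.599, edgeR). Prps1 measured 73.5, 65.8 and 63.7 CPM unstimulated and 124, 126 and 119 CPM with anti-CD3, without overlap. Its share of the pair's counts was 46.8% ± 2.41 unstimulated and 68.2% ± 1.65 with anti-CD3 (SD, n = 3), a shift in the same direction as with isotype. In the remaining purine genes, Paics measured 436, 446 and 467 CPM unstimulated and 749.6, 739 and 708 CPM with anti-CD3, and Adss 96.5, 94.5 and 112 CPM and 169, 183 and 191 CPM. Both rose without overlap, by 0.70 ± 0.07 and 0.83 ± 0.09 (log2, SE).

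Impdh1 measured 71.0, 84.4 and 80.0 CPM unstimulated and 209, 207 and 218 CPM with both antibodies, and Impdh2 73.5, 69.3 and 82.7 CPM and 242, 221 and 232 CPM. Impdh1 rose by 1.42 ± 0.09 and Impdh2 by 1.62 ± 0.09 (log2, SE), each without overlap. Nme1 measured 124, 99.5 and 151 CPM unstimulated and 682, 653 and 682 CPM with both antibodies, Nme2 690.2, 611 and 749.7 CPM and 1987, 1974 and 1879 CPM, and Cmpk1 55.7, 42.2 and 44.2 CPM and 53.5, 45.3 and 46.2 CPM. The Nme genes rose by 2.42 ± 0.11 and 1.504 ± 0.08 (log2, SE), while the Cmpk1 groups overlapped (0.03 ± 0.13, adjusted p = 0.846, edgeR). The other members that rose under anti-LAIR-1 had log2 fold changes from 0.78 (Rrm1) to 2.20 (Umps). Among them Atic was at 0.81, Ppat at 1.95, Gart at 1.97, Adsl at 1.71, Gmps at 1.39, Cad at 2.15, Dhodh at 1.58, Hprt at 1.18, Aprt at 2.02, Guk1 at 0.97, Dtymk at 1.67 and Dut at 0.91.

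Within anti-CD3 stimulation, anti-LAIR-1 changed 3 of the 33 members tested: Samhd1 and Ctps2 were higher and Pfas was lower than with isotype. Of all 8800 genes tested 5.76% were called, 3.9% higher and 1.86% lower, so the members' share, 9.09%, is given without a test. These libraries also enter the anti-CD3 comparisons above, so the values below share them. Samhd1 measured 77.7, 80.5 and 108 CPM with isotype and 140, 156 and 145 CPM with anti-LAIR-1. The 2 sets did not overlap, both lay below the unstimulated anti-LAIR-1 values of 228, 240.2 and 238 CPM, and isotype mouse 3 was the highest of its group. The dNTP hydrolase gene was 1.63-fold higher with anti-LAIR-1 (log2 0.70 ± 0.11, SE, adjusted p = 0.000572, edgeR), and higher in 3 of 3 mice, by 0.85, 0.95 and 0.42 (log2). This call was kept when each of the 6 libraries was left out in turn (log2 0.62 to 0.87) and with the mouse as a block in edgeR and in DESeq2. Of the 60-base words at the 3' end of Samhd1, 7.51% also occur in transcripts of 47 other genes, some of them counted here.

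Ctps2, the CTP synthase gene that fell with anti-CD3, had a log2 fold change of -2.06 under anti-LAIR-1 and -3.07 with isotype, a difference tested by the interaction below. It measured 5.44, 6.15 and 9.33 CPM with isotype and 14.8, 13.4 and 16.7 CPM with anti-LAIR-1, beside 68.5, 64.5 and 53.3 CPM in unstimulated anti-LAIR-1 libraries. No anti-LAIR-1 value overlapped the isotype values, although the isotype libraries held only 18 to 58 counts of this gene. The log2 difference was 1.04 ± 0.22 (SE, adjusted p = 0.00851, edgeR), and 1.37, 1.06 and 0.81 in mice 1 to 3. It missed the threshold without anti-CD3 isotype mouse 2 (0.93, adjusted p = 0.0509, edgeR) and with the mouse as a block in DESeq2 (1.10, adjusted p = 0.0684). Ctps had a log2 difference of -0.23 ± 0.10 (SE, adjusted p = 0.189, edgeR) with overlapping groups. The share of Ctps in the pair was 86.1% to 90.1% with anti-LAIR-1 and 93.4% to 96.2% with isotype, with no library of one range inside the other.

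**Figure D3:**
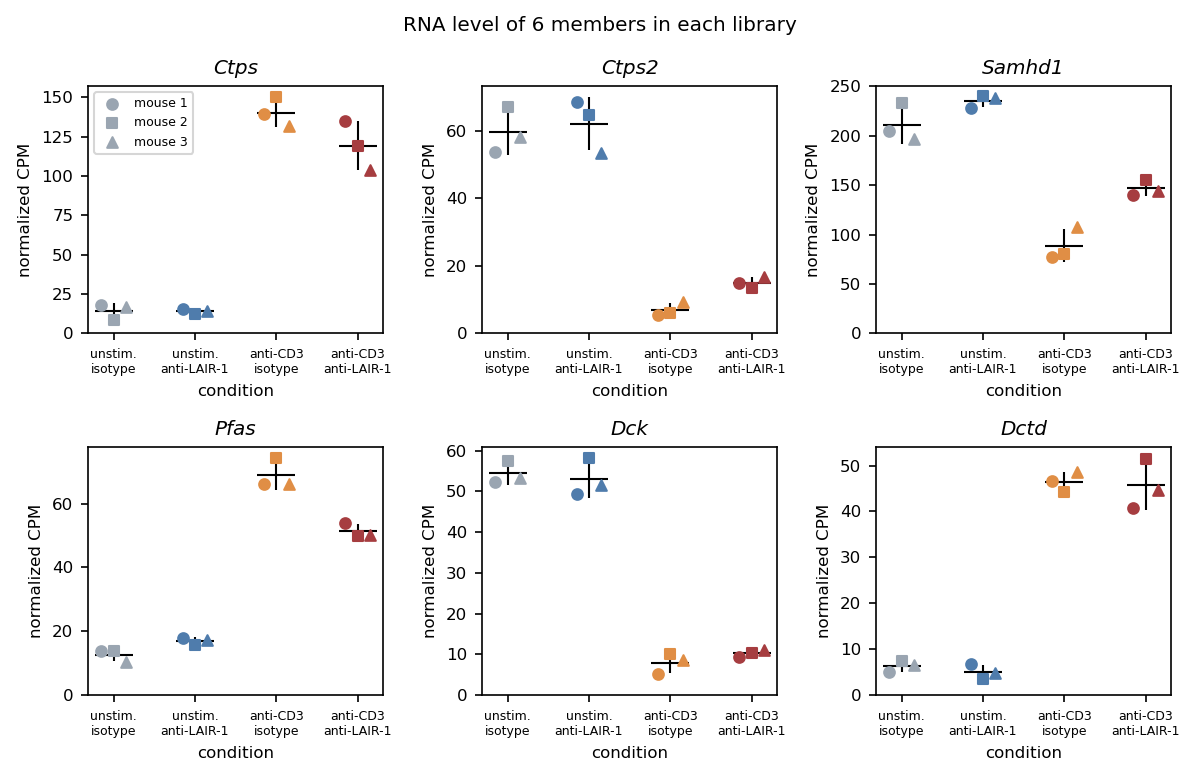
TMM-scaled CPM (y axis, from 0) of 6 members in each of the 12 libraries by condition (x axis), with marker shape for the mouse and black lines for the mean ± SD of 3 libraries. Samhd1 and Ctps2 with anti-CD3 lie higher with anti-LAIR-1 than with isotype and Pfas lies lower, while Dck and Dctd overlap.

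Pfas, of the purine ring pathway, rose with anti-CD3 by 1.595 under anti-LAIR-1 and by 2.38 with isotype (log2), a difference tested by the interaction below. It measured 66.2, 74.4 and 66.1 CPM with anti-CD3 and isotype and 53.9, 49.9 and 50.2 CPM with anti-CD3 and anti-LAIR-1, beside 18.02, 15.7 and 17.1 CPM in unstimulated anti-LAIR-1 libraries. The anti-CD3 groups did not overlap, and the log2 difference was -0.43 ± 0.10 (SE, adjusted p = 0.0148, edgeR), with -0.29, -0.57 and -0.39 in mice 1 to 3. The call was lost without anti-CD3 isotype mouse 2 (-0.37, adjusted p = 0.077), without anti-CD3 anti-LAIR-1 mouse 2 (-0.41, adjusted p = 0.067), both in edgeR, with the mouse as a block in DESeq2 (-0.44, adjusted p = 0.143) and with libraries thinned to the smallest total (-0.36, adjusted p = 0.162, edgeR).

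The other 30 members did not pass the test. Of the 33 tested, 25 had a log2 difference below 0, beside 49.4% of all genes tested, and the members' median was -0.09 beside 0.00. The groups were lower without overlap for 10 members and higher for 3, beside 11.1% and 12.9% of all genes tested, 24% in either direction. The 10 were Ppat, Gart, Pfas, Impdh1, Gmps, Cad, Dhodh, Nme2, Dtymk and Dut, and the 3 were Ctps2, Cmpk1 and Samhd1. Apart from Pfas, the 10 ranged from -0.36 for Dhodh to -0.13 for Nme2 (log2). Cad, which starts pyrimidine synthesis, measured 182, 189.5 and 165 CPM with isotype and 154, 156 and 134 CPM with anti-LAIR-1. These sets did not overlap, and the difference of -0.28 ± 0.09 (log2, SE) had an adjusted p of 0.068 (edgeR). With the mouse as a block it passed in edgeR (-0.28, adjusted p = 0.0343) and not in DESeq2 (-0.29, adjusted p = 0.158), and it also passed without anti-CD3 isotype mouse 3 (-0.35, adjusted p = 0.0437, edgeR). Impdh1 had a difference of -0.24 ± 0.07 (log2, SE, adjusted p = 0.0606, edgeR), which passed in DESeq2 without a block (adjusted p = 0.0438) and not with it (adjusted p = 0.252).

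By role, the de novo purine genes had a median log2 difference of -0.20 with 1 of 6 called (Pfas, lower), the pyrimidine genes -0.23 with 1 of 5 called (Ctps2, higher), and the AMP and GMP genes -0.13 with 0 of 4. The salvage genes had a median of -0.01 and the nucleotide kinases -0.04, each with 0 of 5 called, and the deoxynucleotide genes -0.09 with 1 of 6 called (Samhd1, higher). The PRPP synthetases had 0 of 2 called. The salvage kinases Dck and Tk2 had differences of 0.31 ± 0.24 and 0.28 ± 0.26 (log2, SE) with wide errors. Dctd had overlapping groups and a difference of -0.04 ± 0.12 (log2, SE). The naive markers summed to 402 to 488 CPM in anti-CD3 isotype libraries and 568 to 709 CPM in anti-CD3 anti-LAIR-1 libraries, the T cell list to 1342 to 1426 CPM and 1698 to 1899 CPM, and early activation genes to 2260 to 2504 CPM and 2004 to 2340 CPM. The part of these shifts in the member differences was not tested.

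**Figure D4:**
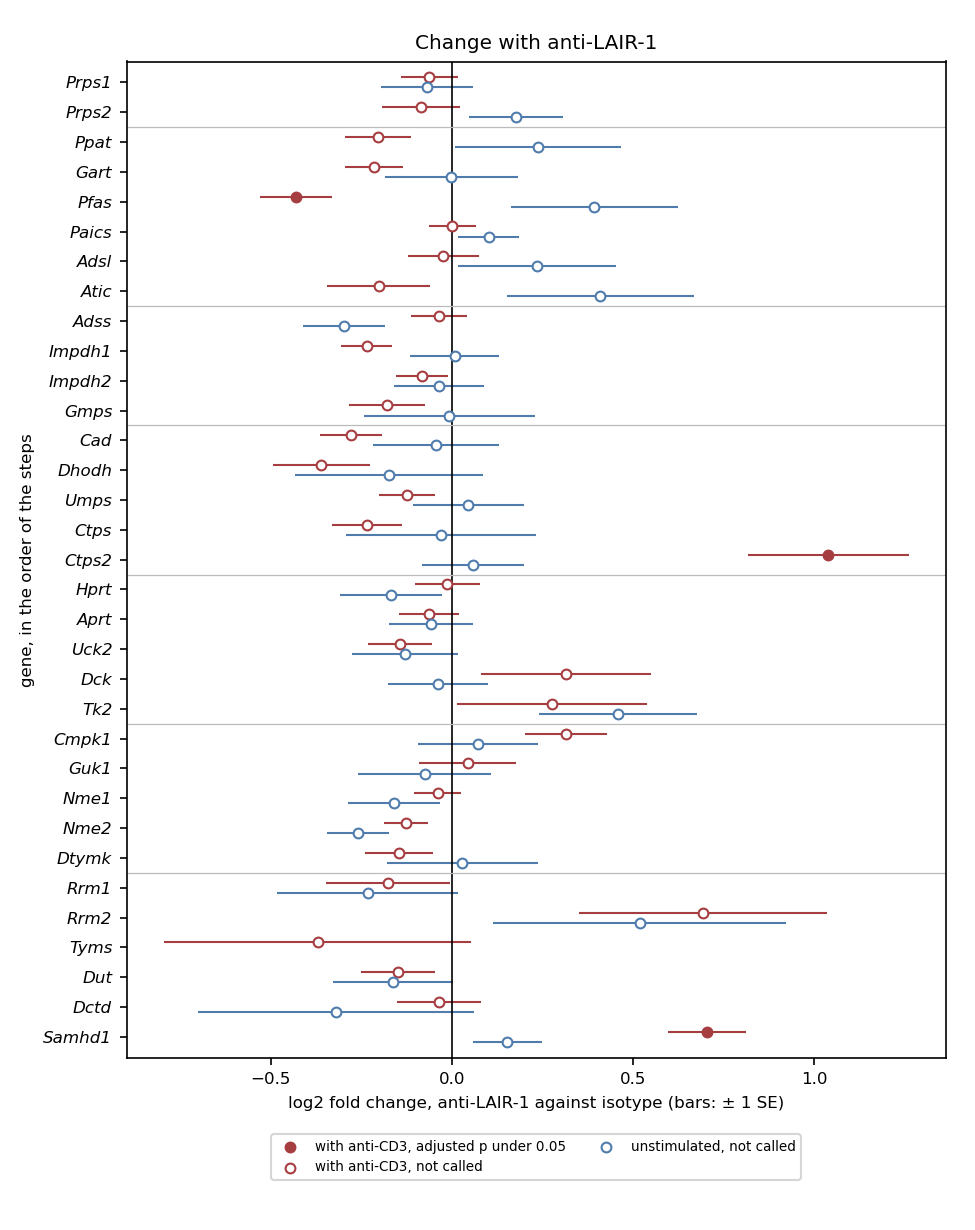
Log2 fold change of each tested member with anti-LAIR-1 against isotype (x axis, bars ± 1 SE, 3 libraries per group), with anti-CD3 (red) and unstimulated (blue), with filled points for adjusted p under 0.05. The filled points are Pfas at -0.43, Ctps2 at 1.04 and Samhd1 at 0.70, all with anti-CD3.

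Without anti-CD3, anti-LAIR-1 gave no called member among 32 tested, and 3 had an unadjusted p under 0.05. These libraries were shallower, with median totals of 2304214 counts with isotype and 3548881 with anti-LAIR-1. With anti-CD3 the medians were 4883760 and 6204054, and the part of depth in the lack of calls was not tested. Of all 8770 genes tested 0% were called in edgeR, while 384 had an unadjusted p under 0.05, and DESeq2 called 0 members too. The members' median log2 difference was -0.02. Groups did not overlap for 3 members on the higher and 3 on the lower side, beside 4.8% and 4.86% of all genes tested, 9.66% in either direction. The 3 lower were Adss, Nme2 and Tyms, of which Tyms, with 3 to 6 counts per library, was not among the 32 tested. Samhd1 measured 205, 233 and 196 CPM with isotype and 228, 240.2 and 238 CPM with anti-LAIR-1, which overlapped (0.15 ± 0.10, log2, SE). Ctps2 likewise overlapped, with a difference of 0.06 ± 0.14 (log2, SE). Pfas measured 13.9, 13.9 and 10.3 CPM with isotype and 18.02, 15.7 and 17.1 CPM with anti-LAIR-1. These did not overlap, with the anti-LAIR-1 values on top, and the difference was 0.39 ± 0.23 (log2, SE, adjusted p = 0.997, edgeR), the opposite sign to that with anti-CD3.

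Whether anti-LAIR-1 acted differently with and without anti-CD3 was tested over all 12 libraries. The same 3 members, Ctps2, Samhd1 and Pfas, of 32 tested passed this interaction test, beside 2.07% of 9223 genes (1.82% higher, 0.249% lower). The interaction holds the anti-LAIR-1 difference under anti-CD3 from the same libraries, so naming the same members is not separate support for it. Ctps2 had an interaction of 0.97 ± 0.25 (log2, SE, adjusted p = 0.0392) and Samhd1 of 0.56 ± 0.15 (adjusted p = 0.0494), both toward higher levels with both antibodies. Pfas had -0.81 ± 0.22 (SE, adjusted p = 0.0459). All were close to the threshold (edgeR). When each of the 12 libraries was left out in turn, Ctps2 kept its call 4 times, Samhd1 2 times and Pfas 1 time, with the sign unchanged throughout. The Pfas interaction did not pass in DESeq2, without the mouse as a block (-0.81, adjusted p = 0.0558) or with it (-0.83, adjusted p = 0.0773), and passed with the block in edgeR (adjusted p = 0.0447). Without mitochondrial genes and Rn45s, Ctps2 and Pfas passed and Samhd1 did not. With no scaling factor, Ctps2 and Samhd1 passed and Pfas did not. Thinned to the smallest total no member passed, beside 1.25% of all genes tested.

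Other genes of nucleotide metabolism were read from a list of breakdown, interconversion, transport, further salvage and one-carbon genes, of which 49 were in the table. With anti-CD3 and isotype 15 of 35 tested rose and 11 fell, 74.3% beside 71.3% of all genes tested. Under anti-LAIR-1 the stimulated cells had 14 of 36 that rose and 13 that fell, 75% beside 72.7%. With isotype the highest values were those of Shmt1, a serine hydroxymethyltransferase that feeds thymidylate synthesis, at 5.67 ± 0.20 and of the equilibrative nucleoside transporters Slc29a2 at 3.98 ± 0.29 and Slc29a3 at 3.83 ± 0.24 (log2, SE). Shmt1 went from 1.63 to 5.39 CPM unstimulated to 180.5 to 193 CPM. The lowest were those of Slc28a2, a concentrative purine nucleoside transporter, at -3.59 ± 0.34, of Dguok, the mitochondrial deoxyguanosine kinase, at -1.71 ± 0.23, and of Ak3, a mitochondrial GTP:AMP phosphotransferase, at -1.44 ± 0.22 (log2, SE). Like Dck and Tk2 among the members, Dguok phosphorylates deoxynucleosides. Under anti-CD3, anti-LAIR-1 changed 2 of 35 of these genes, both higher, a share of 5.71% beside 5.76% of all genes tested. Nt5e, which encodes the ecto-5'-nucleotidase CD73, had 36.5 to 48.4 CPM with isotype and 61.0 to 73.8 CPM with anti-LAIR-1, without overlap, and a log2 difference of 0.67 ± 0.12 (SE, adjusted p = 0.00246, edgeR). Slc29a1, the nucleoside transporter ENT1, had 234 to 245 CPM with isotype and 292 to 326 CPM with anti-LAIR-1, also without overlap, and a difference of 0.35 ± 0.07 (log2, SE, adjusted p = 0.00736, edgeR). In unstimulated cells 0 of 34 were called (2 at an unadjusted p under 0.05, edgeR, and 0 in DESeq2). The interaction called 0 of 36 in edgeR (5 at an unadjusted p under 0.05), with Nt5e at 0.80 ± 0.22 (log2, SE, adjusted p = 0.0623).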

How the data were processed

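The libraries of 12 cultures followed a modified CEL-seq procedure, which tags transcripts near the 3' end. According to the methods, read 2 was aligned to the mm10 transcriptome with BWA MEM (version not given in the sources used here), and reads mapping equally well to several places were discarded. The deposited values are raw counts per gene symbol made by the authors, with no normalization. Collapse of molecular identifiers is not given in the sources used here, so it is not known whether the counts are of molecules or of reads. The SE, SD and p-values given include the spread between the 3 libraries of a condition and not counting error alone.

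Members are the 34 named symbols, and these members and the list of other nucleotide genes were chosen with earlier results of these data known. Each comparison of 2 conditions was fitted on its own 6 libraries with edgeR 4.0.16 in R 4.3.3 (TMM, filterByExpr, quasi-likelihood F-test) and the interaction on all 12, with Benjamini-Hochberg adjustment over all genes tested and a threshold of 0.05. SE is the size of the log2 fold change divided by the square root of F. Per-mouse log2 differences used a prior count of 2. Mouse numbers mark the animal that gave the cells, so libraries are paired by animal, and deviations of same-numbered libraries correlated at -0.00682 to 0.0882 over 12 pairs of groups. The main fits hold no block, as the methods state none. Exact permutation of 3 against 3 libraries cannot give p below 0.1, so only the model across genes is reported.

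Totals ranged from 1781218 to 7725545 counts, and no library pair within a group differed by as little as sampling noise. All members are named. Values of every library are given for members called under anti-LAIR-1 or in the interaction, for the highest and lowest log2 fold change with anti-CD3 and isotype in each role, and for related pairs. Other nucleotide genes are named if called under anti-LAIR-1 or among the 3 highest or lowest with anti-CD3. Adk, Uckl1 and Uck1 are named beside the nucleoside kinases among the members. Alternatives were other scalings, filters, DESeq2 1.42.0, the mouse as a block, thinned counts, counts without mitochondrial genes and Rn45s, all 12 libraries in 1 fit, and each library left out. The fitting code was tested on simulated data. No column of the table was left unused. Shared 3' sequence was counted as 60-base words in the last 500 bases of GENCODE M21 transcripts.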

Additional observations from a re-analysis of the deposited data

Results flagged for a closer look

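In 3 members anti-LAIR-1 had unequal effects in stimulated and unstimulated cells by the interaction test (edgeR quasi-likelihood test, 12 libraries, adjusted over 9223 genes). Pfas had an interaction of -0.81 on the log2 scale (SE 0.22, adjusted p = 0.0459), with the same sign in 3 of 3 mice. Its effect was -0.43 with anti-CD3 and 0.39 without it. Ctps2 had an interaction of 0.97 (SE 0.25, adjusted p = 0.0392), with effects of 1.04 and 0.06, and 3 of 3 mice shared the sign. Samhd1 had an interaction of 0.56 (SE 0.15, adjusted p = 0.0494), with effects of 0.70 and 0.15, and 3 of 3 mice shared the sign. When each of the 12 libraries was left out in turn, the adjusted p ranged from 0.0462 to 0.122 for Pfas, from 0.0131 to 0.154 for Ctps2 and from 0.00502 to 0.167 for Samhd1. Pfas passed the test without unstimulated anti-LAIR-1 mouse 2 and in no other of these fits. Samhd1 passed without unstimulated isotype mouse 3 or anti-CD3 isotype mouse 3. Ctps2 passed without unstimulated isotype mouse 1, unstimulated anti-LAIR-1 mouse 1, anti-CD3 isotype mouse 3 or anti-CD3 anti-LAIR-1 mouse 2. What underlies these differences was not tested.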

How the results depend on the processing

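Of the members called, 28 of 29 with anti-CD3 and isotype, 30 of 30 with anti-CD3 and anti-LAIR-1, 1 of 3 with anti-LAIR-1 under anti-CD3 (Samhd1) and 0 of 3 in the interaction kept their call under each alternative run, and none reversed. The counts of members were 28 to 31, 30 throughout, 1 to 4 and 0 to 3, and without anti-CD3 anti-LAIR-1 called 0 members under all 17 alternatives. With the mouse as a replicate block the count under anti-CD3 and anti-LAIR-1 was 4 in edgeR, beside 6.24% of all genes tested. In DESeq2 with the block it was 1, Samhd1, beside 2.59% of all genes tested, and the cause was not tested. Against the same tool without it, the block changed the calls of Rrm1, Cad, Ctps2, Pfas and Impdh1 given with the results, and no other member's call. Thinned to the smallest total, the interaction called 0 members, beside 1.25% of all genes tested, on fewer counts. Leaving out 1 library at a time, where a group keeps 2 libraries, the count under anti-LAIR-1 with anti-CD3 ranged from 1 to 4. It was 1 without anti-CD3 isotype mouse 2, beside 3.23% of all genes tested. Without anti-CD3 isotype mouse 3 it was 4, beside 4.42%. The interaction count ranged from 0 to 2, beside 1.1% to 1.99% of all genes tested. Prps2 fell with anti-CD3 and isotype under upper-quartile scaling, no scaling factor or thinning (log2 -0.38, -0.30 and -0.35), and Cmpk1 under upper-quartile scaling (-0.42). Upper-quartile scaling and no scaling factor moved the median of all genes to -0.20 and -0.12 with isotype and to -0.24 and -0.15 with anti-LAIR-1. Other nucleotide genes called by anti-LAIR-1 with anti-CD3 numbered 1 to 4, and by the interaction 0 to 2. Depth limits Tk1, Tyms and Rrm2, which had at most 5, 14 and 59 counts per library.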
